A study of Mus musculus with 2 samples.

Results

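The genes of the SR proteins and of the heterogeneous nuclear ribonucleoproteins (hnRNPs) were taken as every protein-coding gene whose GENCODE M21 symbol begins with Srsf and a number or with Hnrnp. The rule found 31 of 43346 annotated genes in the files, 21474 of which are protein-coding: 11 SR genes and 20 hnRNP genes. Together they hold 212 transcript models, 69 in the SR genes and 143 in the hnRNP genes. The samples are 2 replicate libraries of 1 group, made from frontal cortex of C57BL/6J littermates of both sexes, 8 weeks old, which the labels call pooled. RNA over 200 nt with a poly(A) tail was depleted of ribosomal RNA, mixed with ERCC spike-in RNAs and sequenced as stranded read pairs. No conditions are contrasted in the design, so levels, transcript shares and the distance between the replicates are described without p-values.

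SR proteins bind enhancer sequences in exons through RNA recognition motifs and recruit the splicing machinery through tails rich in arginine and serine. Most hnRNPs coat nascent RNA, and many of them silence splice sites that SR proteins promote. Genes of both families are known for controlling their own output: an exon with a premature stop codon (a poison exon) is spliced in, or an intron is kept, and the RNA is degraded by nonsense-mediated decay or held in the nucleus.

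Expected counts, the authors' estimate of fragments per gene, summed to 106084891 in replicate 1 and 90476207 in replicate 2. The female-specific Xist had 107 counts in replicate 1 and 77696 in replicate 2, whereas the Y-linked Eif2s3y had 7150 and 3, so the libraries differed in sex-linked RNA although the label is the same. The neuronal Snap25 and Slc17a7 stood at 1330.4 ± 24.3 TPM and 424 ± 32.5 TPM (mean ± SD, n = 2), and the liver and muscle genes Alb, Myh1 and Ckm were at most 1.11 TPM. The replicates, which the labels number as biological, therefore do not hold the same mix of animals, and sex and replicate cannot be told apart. In bulk tissue, fewer cells of a type and less RNA per cell cannot be told apart.

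In this cortex 30 of the 31 genes reached 10 TPM in both libraries (TPM is a length-adjusted share of all transcripts in a library). By mean TPM all 31 did, against 7929 of 21474 protein-coding genes. The SR genes summed to 1448 and 1286 TPM in replicates 1 and 2, and the hnRNP genes to 2085 and 1850 TPM. The families differed in which RNAs made up these sums. Coding transcripts took 43.1 ± 0.492% of the SR sum and 80.4 ± 0.368% of the hnRNP sum (mean ± SD, n = 2), and retained-intron transcripts took 33.4 ± 0.942% and 10.2 ± 0.558%. Transcripts annotated for nonsense-mediated decay made up 8.65 ± 0.178% and 3.34 ± 0.139%, and the rest was nearly all processed transcripts, models without an assigned reading frame. The decay share of the hnRNP genes depended on gene assignment. It was 7.82 ± 0.0946% when 5 transcripts that M21 gives to Hnrnpu and Hnrnpr, listed in the files under other gene identifiers, were added; 3 of them are decay transcripts of Hnrnpu. By expected counts the decay share was 5.10 ± 0.196% in SR genes and 2.51 ± 0.0879% in hnRNP genes as listed, and 7.66 ± 0.0228% in hnRNP genes by M21 assignment, so the order of the families turned with it. The coding and retained-intron shares kept their order under these settings. Where 2 values are given for a gene or a transcript below, the first is replicate 1 and the second replicate 2.

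**Figure D1:**
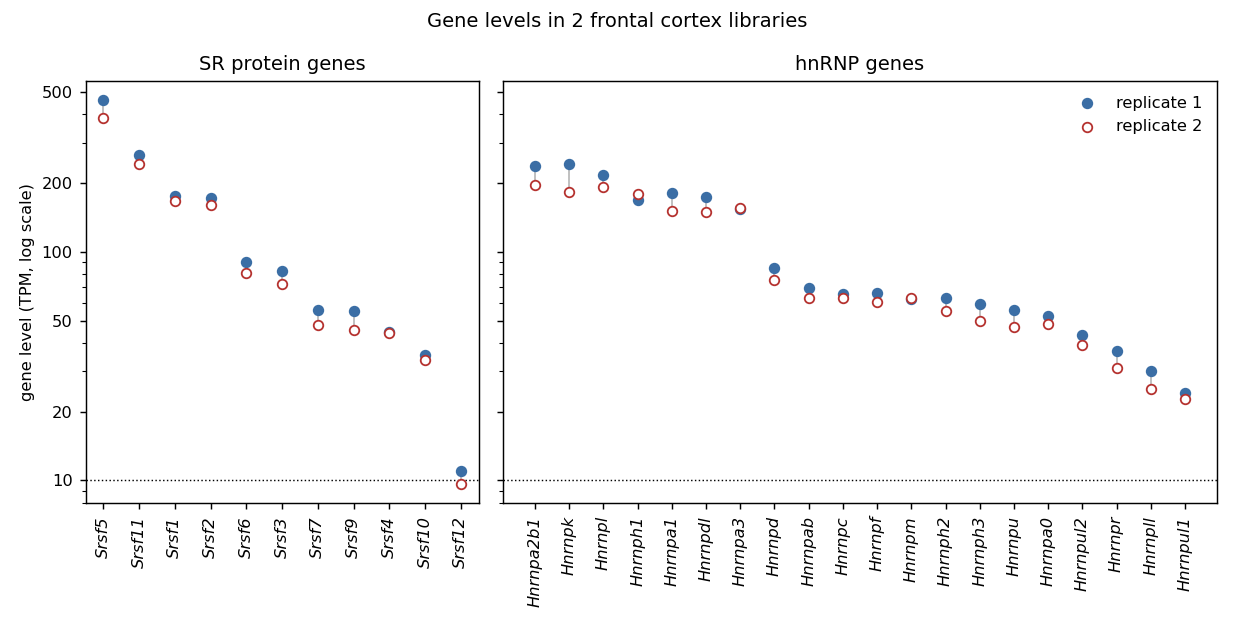
Gene level (TPM, log axis) of the 11 SR genes and 20 hnRNP genes, 1 point per library, ordered by mean within each family. The dotted line marks 10 TPM, which only Srsf12 in replicate 2 lies under. Srsf5 is the highest gene in both libraries. By TPM 28 of the 31 genes are lower in replicate 2, as is the median over all genes. By counts scaled between libraries 18 are lower, against 46.0% of 7929 protein-coding genes.

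Srsf5 (SRp40), an SR protein with a pair of RNA recognition motifs, was the most abundant gene of either family at 460.0 and 385 TPM (ENSMUSG00000021134.13, chr12:80945504-80950507, mm10). Its coding transcripts took only 33.6 and 31.2% of that level. The most abundant single model by its mean was Srsf5-212, annotated as a retained intron, at 121 and 109.6 TPM, beside 108 and 87.3 TPM for the main coding transcript Srsf5-201. Processed transcripts led by the short Srsf5-211 (121 and 105 TPM) took 38.6 and 38.5%. The intron that Srsf5-212 keeps whole is intron 5 of the coding transcript, 1229 nt long and GT–AG at its ends. Its junctions are printed here with those of introns kept in Srsf6 and Hnrnph3, since these introns separate the retained-intron models from the coding ones. Exon bases are in capitals and intron bases in lower case, from GENCODE M21 transcript sequences (mm10).
Srsf5 intron 5, 5′ junction: TGGCAGgtttgttgaaatac
Srsf5 intron 5, 3′ junction: cataattgtcttgtgttaagGATCTC
Srsf6 intron 2, 5′ junction: GCCGCAgtgagtccttaccc
Srsf6 intron 2, 3′ junction: actcccttcatgtgataaagGTGGTG
Hnrnph3 intron 4, 5′ junction: ATGGTGgtatgtgtgtctaa
Hnrnph3 intron 4, 3′ junction: tttccttccattttatacagGCTATG
The introns lie at chr12:80947866-80949094, plus strand, chr2:162932143-162933425, plus strand, and chr10:63017611-63018040, minus strand. All 3 open with the bases GT and close with AG, as do the other whole introns kept by retained-intron models of both families at 1 TPM or more. Of 41 such models, 16 keep at least 1 whole intron of the gene's main coding transcript, and the other 25 keep none whole. The 25 include the top retained-intron models of Srsf1, Srsf11, Hnrnpk, Hnrnpl, Hnrnpll and Hnrnpu. The 16 models keep 20 introns, counted once per model, from 78 nt in Hnrnpk-217 to 2150 nt in Srsf3-204 with a median of 339 nt, and 19 of them interrupt the coding part. Intron 5 of Srsf5 is also kept by Srsf5-209 (5.07 and 2.98 TPM) and Srsf5-207 (1.95 and 3.33 TPM).

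Srsf11 (SRp54), which binds the U2AF splice site factor, followed at 266 and 242 TPM and had the lowest coding share of all members, 24.3 and 21.5%. Retained-intron models took 66.7 and 68.9%. None of them at 1 TPM or more keeps a whole intron of the main coding transcript. The largest of them, Srsf11-203, took 26.1 and 34.9%, and its deposited TPM intervals in the libraries did not overlap. The main coding transcript Srsf11-202 stood at 46.3 and 38.5 TPM. Transcripts of the decay class took 9.05 and 9.61%, led by Srsf11-206 at 20.8 and 19.7 TPM. Srsf11-206 reads into an exon that no coding transcript with a complete coding sequence overlaps.

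Srsf1 (ASF/SF2), which binds purine-rich exonic enhancers, was present at 175 and 166 TPM, and Srsf2 (SC35), a resident of nuclear speckles, at 173 and 159.7 TPM. In Srsf1 the coding share was 44.1 and 42.1%, the retained-intron share 32.2 and 33.5% and the decay share 23.7 and 24.4%. Its top models were Srsf1-203 (retained intron, 48.4 and 50 TPM), Srsf1-201 (coding, 37 and 32.4 TPM) and Srsf1-204 (decay, 34.3 and 28.5 TPM). Srsf2 kept a larger coding share, 66 and 66.1%, nearly all of it Srsf2-201. Its retained-intron model Srsf2-203 (49.1 and 45 TPM) keeps the last intron, of 1059 nt, which lies behind the stop codon of Srsf2-201. Both decay models of Srsf2, Srsf2-202 (6.57 and 7.53 TPM) and Srsf2-204, also use the normal stop codon and gain exon junctions after it, and their share was 5.57 and 5.72%.

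Srsf6 (SRp55) stood at 90.3 and 80.6 TPM and Srsf3 (SRp20), the smallest SR protein, at 82.5 and 72.5 TPM. Both genes divided their RNA among coding, retained-intron and poison-exon models. In Srsf6 the coding Srsf6-203 took 45.4 and 44.4%, the retained-intron Srsf6-204 39.3 and 38% and the decay model Srsf6-201 15 and 17.5%, values within 3 points between libraries. In Srsf3 the coding Srsf3-202 stood at 29.4 and 31.2 TPM and the decay model Srsf3-201 at 30.1 and 20.8 TPM. The decay share of Srsf3 was 36.4 and 28.7%, and the deposited TPM intervals of Srsf3-201 did not overlap, whereas those of Srsf3-202 did. Its retained-intron models at 1 TPM or more were Srsf3-204 (17.3 and 15.3 TPM) and Srsf3-205 (5.63 and 5.21 TPM). In M21 Srsf3-204 keeps introns 3 and 4 of the coding transcript whole, and Srsf3-205 keeps none whole. Srsf3-205 was quantified at 910 nt and is 2110 nt long in M21, so its TPM belongs to another form of the model. The gap was smaller for Srsf3-204 (3986 and 4010 nt) and Srsf3-202 (2566 and 2618 nt). The poison exon lies in intron 2 of Srsf6, kept by Srsf6-204, and in intron 3 of Srsf3, kept by Srsf3-204. A read inside that exon therefore matches the decay model and this retained-intron model, and the division between them rests on the other reads.

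The stretch from the start of each such exon to its annotated stop codon is printed because the stop places these transcripts in the decay class. The stop codon is in capitals (GENCODE M21 transcript sequences, mm10).
Srsf3-201: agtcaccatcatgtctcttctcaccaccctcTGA
Srsf6-201: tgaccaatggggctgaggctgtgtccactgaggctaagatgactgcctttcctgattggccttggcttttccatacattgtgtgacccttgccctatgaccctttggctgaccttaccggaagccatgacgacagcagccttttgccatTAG
Srsf11-206: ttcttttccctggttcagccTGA
Srsf11-212: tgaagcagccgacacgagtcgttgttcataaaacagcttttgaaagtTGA
Srsf4-203: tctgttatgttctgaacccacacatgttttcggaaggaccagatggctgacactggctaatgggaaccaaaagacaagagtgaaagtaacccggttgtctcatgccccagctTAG
Hnrnpl-213: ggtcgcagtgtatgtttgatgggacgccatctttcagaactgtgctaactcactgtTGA
Hnrnpll-203: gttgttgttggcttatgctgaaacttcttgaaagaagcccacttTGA
The stretches lie at chr17:29039454-29039487, plus strand (Srsf3), chr2:162932815-162932966, plus strand (Srsf6), chr3:158024209-158024231, minus strand and chr3:158023310-158023359, minus strand (Srsf11), chr4:131884276-131884390, plus strand (Srsf4), chr7:28817335-28817393, plus strand (Hnrnpl), and chr17:80044976-80045022, minus strand (Hnrnpll). The reading frame ended after 23 to 152 nt of these exons, stop included. Between the stop and the last exon junction lay from 67 nt in Srsf11-212 to 842 nt in Hnrnpl-213. Srsf3-201 is 1919 nt long in the files and 2594 nt in M21, so its exon is that of the M21 model. The Srsf6 stretch is shown although the short coding model Srsf6-202 ends in the same exon, and those of Hnrnpl and Hnrnpll were added after their values were seen. Of the 17 decay models at 1 TPM or more, 8 had their stop in an exon that the gene's main coding transcript lacks, 5 had another stop in an exon of it, and 4 had its normal stop.

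**Figure D2:**
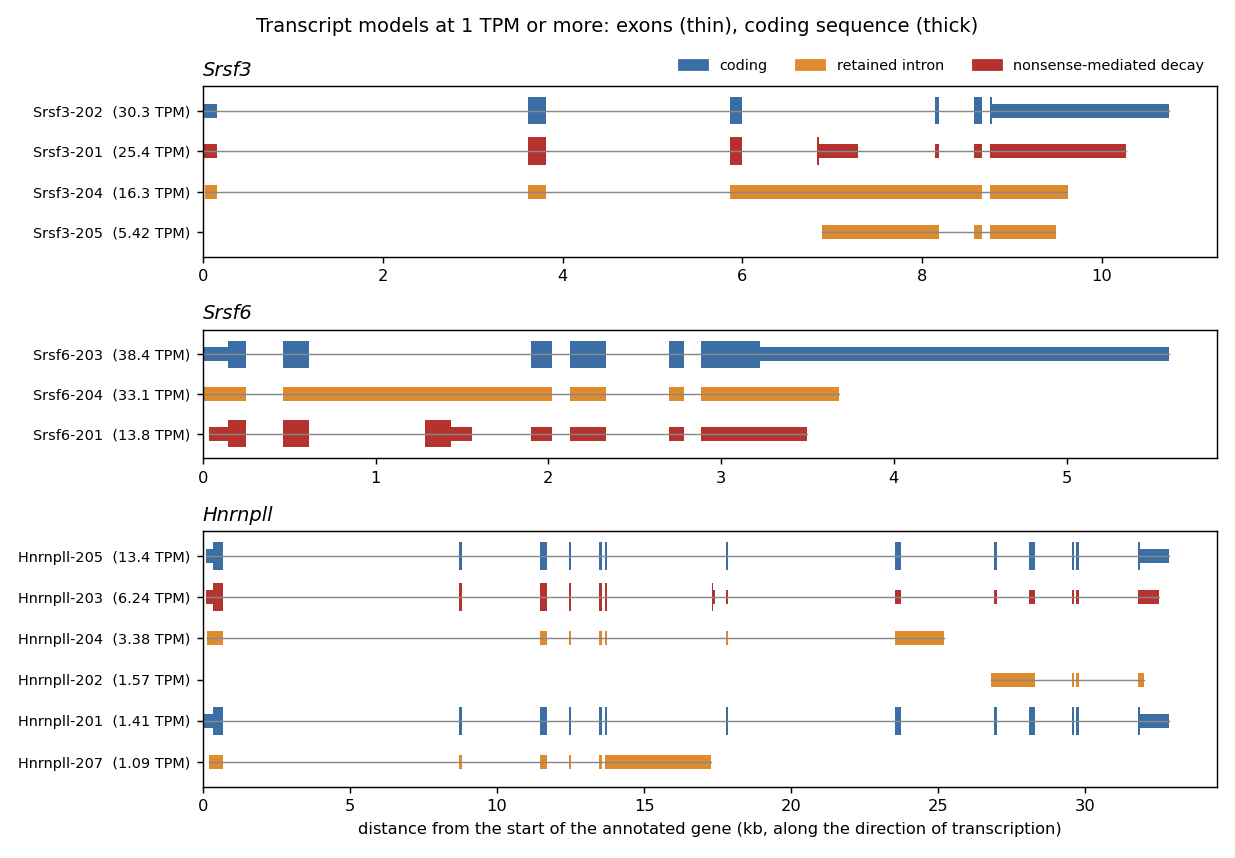
Transcript models of Srsf3, Srsf6 and Hnrnpll at 1 TPM or more, by distance from the gene start (kb); thin boxes are exons, thick boxes coding sequence, and colour gives the class. The decay models (red) carry an additional exon in which the thick part ends. In Srsf3 and Srsf6 a retained-intron model (orange) covers that exon. Structures are those of M21, and the Srsf3 models drawn differ in length from the models that were quantified.

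The other SR genes were lower. Srsf7 (9G8), which has a zinc knuckle, stood at 55.8 and 47.7 TPM, but only 1 model of it was analysed here and 7 further M21 models were not, so its isoforms could not be resolved. Srsf9 (SRp30c) stood at 55 and 45.3 TPM, of which processed transcripts took 65.6 and 66.6%, led by Srsf9-203 at 20.5 and 17 TPM, and the coding Srsf9-201 stood at 18.6 and 14.5 TPM. Srsf4 (SRp75) stood at 44.6 and 44.1 TPM and was mostly coding (Srsf4-202, 35.6 and 36.8 TPM). Its decay models Srsf4-204 and Srsf4-203 share an exon and took 10.1 and 9.53% together, and its retained-intron share was 10.1 and 6.88%. Srsf10, a repressor of splicing in its dephosphorylated form, stood at 35.4 and 33.6 TPM with a coding share of 74.9 and 76.2%. Srsf12, the lowest member, stood at 11 and 9.64 TPM.

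Among hnRNPs of the A and B type, which bind UAG-containing silencers and shuttle to the cytoplasm, Hnrnpa2b1 was the most abundant at 237 and 197 TPM. Hnrnpa1 stood at 182 and 151 TPM, Hnrnpa3 at 154 and 156 TPM and the intronless Hnrnpa0 at 52.2 and 48.2 TPM. All models of Hnrnpa1, Hnrnpa2b1 and Hnrnpa0 analysed here are coding, so a coding share of 100% is set by the annotation and is no measurement. In Hnrnpa2b1 the coding Hnrnpa2b1-202 took 58.4 and 57% and the longer Hnrnpa2b1-203 38.5 and 40.2%. Hnrnpa3 was 98.1 and 96.9% coding.

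Hnrnpk, a KH-domain protein that binds C-rich RNA, stood at 242 and 183 TPM, the widest relative gap between the libraries among the 6 most abundant members. Its coding share was 79 and 83.7% (top model Hnrnpk-201, 67.5 and 54.7 TPM) and its retained-intron share 19.3 and 13.9%. The top retained-intron model Hnrnpk-209 stood at 19.4 and 4.65 TPM, with deposited intervals apart, and the decay model Hnrnpk-203 at 4.09 and 4.51 TPM. Hnrnpl, which binds CA repeats, stood at 216 and 193 TPM. By TPM it was split evenly between coding (48.3 and 47.9%) and retained-intron transcripts (47.4 and 47.2%). By expected counts the means were 59.9% coding and 35.3% retained-intron. Hnrnpl-201 (coding) stood at 65.2 and 55.1 TPM, Hnrnpl-205 (retained intron) at 50 and 46.5 TPM and the poison-exon model Hnrnpl-213 at 9.23 and 9.44 TPM. Its paralog Hnrnpll, a splicing regulator known from lymphocytes, stood at 30 and 25.1 TPM. Of this, 23.1 and 22.1% was the poison-exon model Hnrnpll-203, 22.8 and 24.7% was retained-intron RNA led by Hnrnpll-204 (3.51 and 3.25 TPM), and the coding Hnrnpll-205 stood at 14.6 and 12.1 TPM.

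The H and F proteins bind runs of G. Hnrnph1 stood at 168 and 179 TPM, Hnrnpf at 65.8 and 60.1 TPM, the X-linked Hnrnph2 at 62.9 and 55.3 TPM and Hnrnph3 at 59 and 49.9 TPM. In Hnrnph1, processed transcripts took 59.1 and 60.4%, led by Hnrnph1-204 at 29.9 and 29.9 TPM, beside 58.7 and 62 TPM for the coding Hnrnph1-201. The processed Hnrnph1-214 held 0 and 19.6 TPM, the latter from 2.23 expected counts at an effective length of 1.52 nt. It raises the level and the processed share of Hnrnph1 in replicate 2. Hnrnph3 split its RNA between coding (42.8 and 42.5%), retained-intron (35.6 and 31.8%) and decay transcripts (21.6 and 25.7%). By TPM its highest model in both libraries was the decay model Hnrnph3-204 at 12.8 and 12.8 TPM. Beside it stood Hnrnph3-206 (retained intron, 12.5 and 11.9 TPM) and Hnrnph3-201 (coding, 8.16 and 9.82 TPM). The deposited intervals of Hnrnph3-204 and Hnrnph3-206 overlapped in both libraries, so their order is not resolved. By expected counts Hnrnph3-204 led Hnrnph3-201 in replicate 1 (1504 against 1354). In replicate 2 Hnrnph3-201 led (1470 against 1359). For Hnrnpf and Hnrnph2 only coding models were analysed.

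Of the D type, which bind AU-rich elements, Hnrnpdl stood at 173 and 149 TPM, Hnrnpd (AUF1) at 85 and 75.1 TPM and Hnrnpab at 69.7 and 62.7 TPM. In Hnrnpdl the decay share was 16.9 and 18.3%, mostly Hnrnpdl-201 (21.7 and 21.3 TPM), which uses the normal stop with further junctions behind it. Of its coding share of 69.9 and 64.2%, 43.3 and 41.5% of the gene's TPM came from Hnrnpdl-207, whose coding sequence is annotated as incomplete. The retained-intron share of 9.998 and 12.4% was led by Hnrnpdl-206 (8.71 and 9.77 TPM), and Hnrnpdl-203, a processed transcript, stood at 5.58 and 7.66 TPM. Hnrnpd was 87.6 and 89.7% coding (Hnrnpd-203, 29.3 and 30.7 TPM), with a decay share of 6.00 and 5.38% led by Hnrnpd-204 (3.81 and 3.50 TPM). For Hnrnpab only coding models were analysed.

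Hnrnpc, which binds U-rich tracts and competes with U2AF, stood at 65.1 and 63 TPM, Hnrnpm at 62.1 and 62.6 TPM and Hnrnpr at 36.6 and 31.1 TPM. Hnrnpul2 stood at 43.1 and 39.1 TPM and Hnrnpul1 at 24.1 and 22.7 TPM. Hnrnpm and Hnrnpr were over 90% coding in both libraries, and the other 3 have only coding models here; 11 M21 models of Hnrnpc and 7 of Hnrnpm were not analysed.

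Hnrnpu (SAF-A), which binds RNA and chromatin, stood at 55.7 and 46.8 TPM as listed, with 60.1 and 64.8% coding (Hnrnpu-201, 33.4 and 30.3 TPM) and 30 and 27.2% retained-intron RNA (Hnrnpu-202, 14.7 and 10.6 TPM). Its processed model Hnrnpu-203 stood at 5.51 and 3.75 TPM. The files place 4 transcripts that M21 assigns to Hnrnpu under other gene identifiers, outside the rule used here. The decay transcript Hnrnpu-206, under ENSMUSG00000100725.2, stood at 97 and 85 TPM, above every model listed for Hnrnpu. The processed Hnrnpu-205, under ENSMUSG00000089788.1, stood at 48.9 and 42.9 TPM. Counted by M21 gene, Hnrnpu would stand at 211 and 183 TPM, with a coding share of 15.9 and 16.6% and a decay share of 50.4 and 51%. A further such transcript, Hnrnpr-210, moved the level of Hnrnpr to 39.9 and 34.4 TPM.

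**Figure D3:**
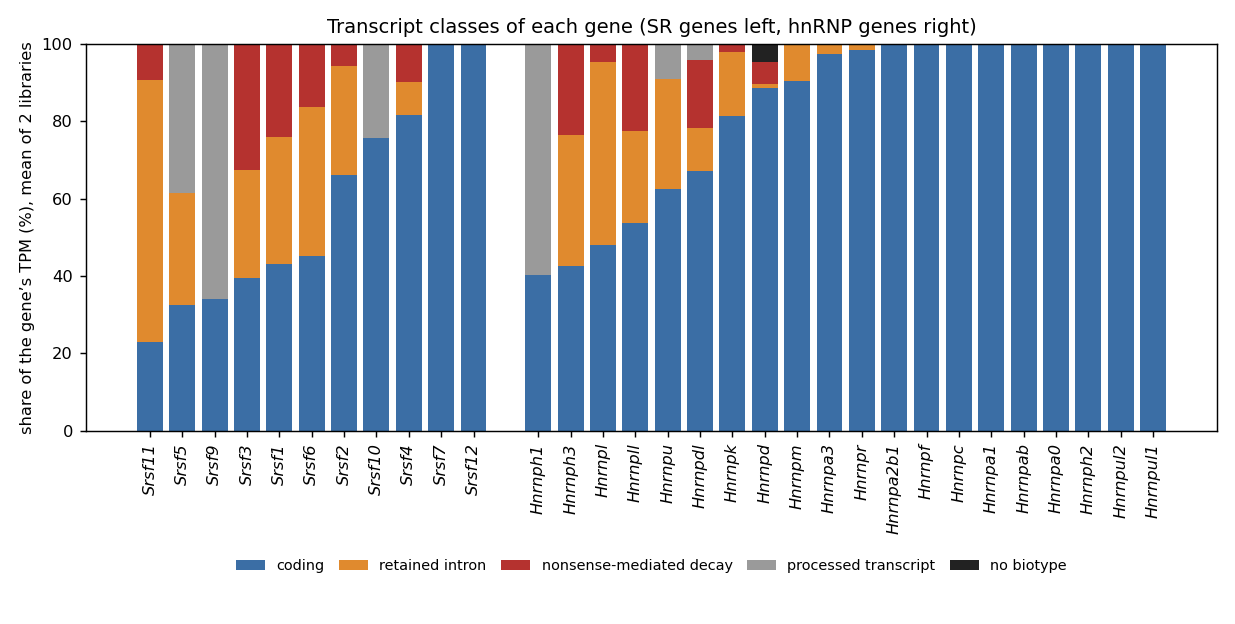
Share of each gene's TPM (%) by transcript class, mean of 2 libraries, SR genes on the left and hnRNP genes on the right, each ordered by coding share. In 6 SR and 3 hnRNP genes the coding part (blue) stays under 50%; genes at 100% have only coding models among those analysed.

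The members' transcript classes were set beside those of all protein-coding genes measured the same way. This background covers 6147 genes that average at least 10 TPM and hold 2 or more transcripts, 28 members among them. The coding share was under 50% in both libraries in 9 members, 6 SR (Srsf1, Srsf3, Srsf5, Srsf6, Srsf9, Srsf11) and 3 hnRNP genes (Hnrnph1, Hnrnph3, Hnrnpl), against 11.9% of all genes. Hnrnpl lies just inside this limit, and Hnrnpll at 54 and 53.2% just outside. Shares taken from expected counts, in which a long transcript weighs more, put 5 members under 50% (Hnrnph1, Srsf3, Srsf5, Srsf9, Srsf11) against 6.07% of all genes.

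The retained-intron share was 10% or more in 11 of 28 members, 6 SR and 5 hnRNP genes, against 28.8% of all genes. Among genes that hold a model of this class the count was 11 of 17, against 48.3%. The called genes were Srsf1, Srsf2, Srsf3, Srsf5, Srsf6, Srsf11, Hnrnph3, Hnrnpk, Hnrnpl, Hnrnpll and Hnrnpu. Hnrnpdl and Srsf4 passed in 1 library each, and Hnrnpm at 9.38 and 9.68% passed in neither. By expected counts 10 members passed, against 18.5% of all genes: Hnrnpk (mean 6.13%) and Hnrnpu (2.85%) were lost and Srsf4 (12.3%) was added. The decay share was 5% or more in 10 of 28 members, against 11.6% of all genes, and in 10 of 14 with a model of this class, against 40.6%. These were Srsf1, Srsf2, Srsf3, Srsf4, Srsf6, Srsf11, Hnrnpd, Hnrnpdl, Hnrnph3 and Hnrnpll, with Srsf2 and Hnrnpd just inside and Hnrnpl just outside. By expected counts 6 members passed (Srsf1, Srsf3, Srsf6, Hnrnpdl, Hnrnph3, Hnrnpll), against 9.65% of all genes.

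The median coding share was 44.1% over the 10 SR genes, 94.0% over the 18 hnRNP genes and 89.9% over all 6147 genes. These medians include genes with only coding models, whose share is fixed at 100%: Srsf12, 7 of the hnRNP genes (Hnrnpa1, Hnrnpa2b1, Hnrnpab, Hnrnpc, Hnrnpf, Hnrnph2, Hnrnpul1) and 1037 of all genes. Among genes with at least 1 model of another class, the median was 43.1% over 9 SR genes, 67% over 11 hnRNP genes and 84.5% over 5110 genes. The members had a median of 6.5 transcript models a gene and all genes 6. Of those 11 hnRNP genes 3 (Hnrnpa3, Hnrnpm, Hnrnpr) were over 90% coding and 3 under 50%, and of the 9 SR genes 0 were over 90% and 6 under 50%. The median length was 2145 nt over the 108 coding models of both families, 833 nt over the 51 retained-intron models and 940 nt over the 23 decay models. A read in a model of median length therefore counts for more TPM in the latter classes. The families differed here: retained-intron models had a median of 1561.5 nt in SR genes and 775 nt in hnRNP genes. Their share of the SR sum was 33.4% by TPM and 36.6% by expected counts, and of the hnRNP sum 10.2 and 4.43%.

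**Figure D4:**
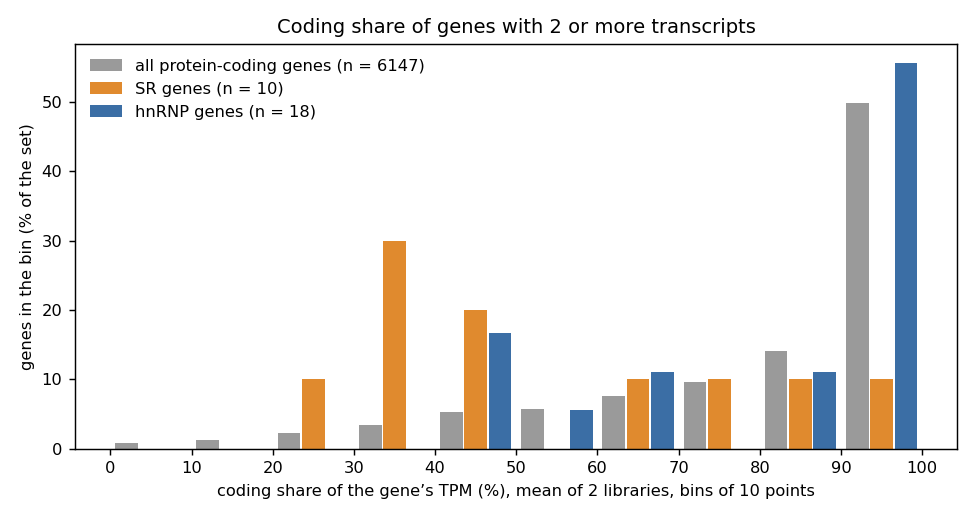
Coding share of the gene's TPM (%, mean of 2 libraries) in bins of 10 points; bars give the percent of each set in a bin (grey, 6147 protein-coding genes; orange, 10 SR genes; blue, 18 hnRNP genes). Of the hnRNP genes 10 lie in the bin from 90 to 100%, as does 1 of the SR genes; 7 of these 10 and that SR gene hold only coding models.

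Transcript use was close between the libraries. Of 209 member transcripts in genes with 2 or more models, 3 differed in share by 10 points or more, against 2.97% of 40859 transcripts of all such genes. Few transcripts of any gene reached this limit, and whether the members differ from other genes here was not tested. Srsf12-201 held 63.3% in replicate 1 and 51.9% in replicate 2, and Srsf12-202, with an incomplete coding sequence, the rest. The third, Hnrnph1-214, has an effective length of 1.77 nt in replicate 1 and 1.52 nt in replicate 2, so its TPM of 19.6 in replicate 2 stands for 2.23 expected counts. By expected counts no transcript differed by 10 points. At 5 points 17 did, among them Srsf3-201, Srsf3-202, Srsf11-203 and Hnrnph3-205, which went from 14.4 to 7.92%. The share of all transcripts at 5 points was not computed, so this count has no background.

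**Figure D5:**
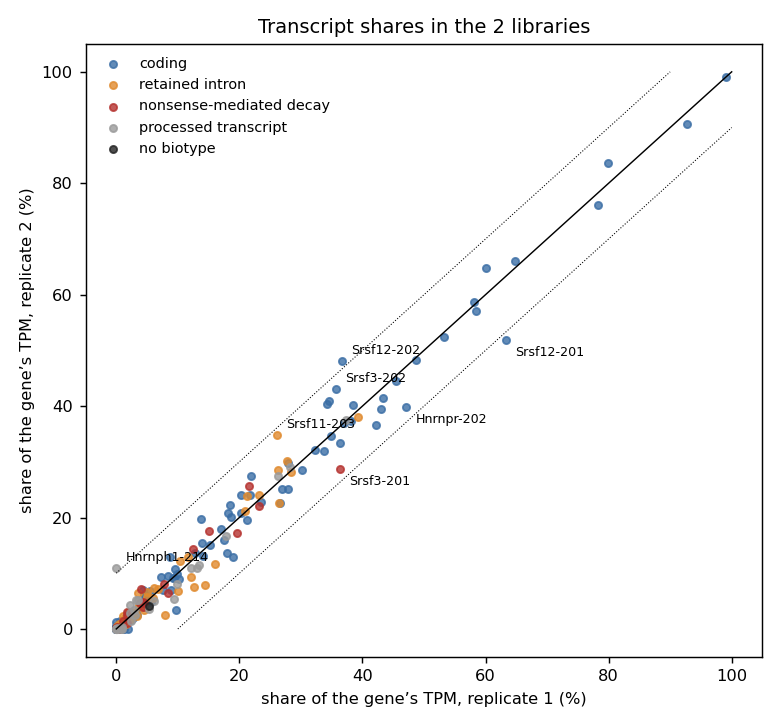
Share of the gene's TPM (%) of each member transcript in replicate 1 (x axis) and replicate 2 (y axis), coloured by class, for genes with 2 or more models. The solid line marks equal shares and the dotted lines a difference of 10 points, which 3 transcripts reach; named points differ by 7 points or more.

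Gene levels were also close. No member differed between replicates by more than 0.5 on the log2 scale in either direction (log2 of replicate 2 over replicate 1, CPM with TMM scaling), against 0.744% of 7929 protein-coding genes that were higher and 0.416% that were lower. So few genes passed this limit that finding none among 31 members does not set them apart. The 95% intervals given here are exact conditional binomial ones and cover counting error only. The lowest ratios were those of Srsf12 at -0.25 (interval -0.36 to -0.15), Srsf9 at -0.18 (interval -0.26 to -0.10) and Hnrnpk at -0.16 (interval -0.18 to -0.13). The highest were Hnrnpm at 0.14 (interval 0.10 to 0.18), Hnrnph1 at 0.10 (interval 0.08 to 0.13) and Srsf4 at 0.10 (interval 0.05 to 0.15). The median over members was -0.02 and over all genes 0.01. Of the 31 members 18 were below 0, against 46.0% of all genes. By deposited TPM 28 of 31 members were lower in replicate 2, with a median of -0.16 against -0.11 for all genes. The share of all genes that were lower by TPM was not counted. The microglial C1qb, P2ry12 and Csf1r were lower in replicate 2 (median ratio -0.35, 129.8 and 90.97 TPM summed) and the oligodendrocyte Mbp, Mobp and Mog higher (median 0.45, 1253 and 1608 TPM summed), and their part in the members' ratios was not tested.

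Members of a family differed in level by up to a log2 ratio over 3 in the pairs compared. Of 22 pairs compared by TPM, not all of them paralogs (Hnrnpk and Hnrnpc are not), 20 kept their sign in both libraries with a mean above the SD and deposited TPM intervals apart. With 2 libraries an exact sign-flip test cannot go below p = 0.5, so no p is given for a pair. The largest log2 ratios were Srsf5 over Srsf4 at 3.25 ± 0.17, Hnrnpl over Hnrnpll at 2.90 ± 0.07, Srsf11 over Srsf10 at 2.88 ± 0.04, Srsf5 over Srsf6 at 2.30 ± 0.07 and Srsf1 over Srsf9 at 1.77 ± 0.14 (mean ± SD, n = 2). On coding transcripts alone these stood at 1.91, 2.74, 1.15, 1.82 and 2.12, with the same signs and another order. The ranking by TPM holds for genes as listed, where Hnrnpu over Hnrnpul1 stood at 1.13 ± 0.12. By M21 gene Hnrnpu would stand at 211 and 183 TPM, against 24.1 and 22.7 TPM for Hnrnpul1. The ratio of that pair would then be larger, and it was not computed. Hnrnpd over Hnrnpab was the smallest ratio beyond the spread, at 0.27 ± 0.02. Hnrnpa1 over Hnrnpa3 changed sign between the libraries (0.24 and -0.04), and Srsf2 over Srsf1 (-0.02 and -0.06) had overlapping intervals. By coding transcripts, Srsf3 over Srsf7 stood at -0.77 in place of 0.58 ± 0.03, the TPM of Srsf3-202 being below that of the single Srsf7 model. Srsf7 holds no model of another class here, so all its RNA counts as coding. Whether its coding RNA exceeds that of Srsf3 therefore cannot be told. Srsf2 over Srsf1 stood at 0.58 by coding transcripts.

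Genes of partner proteins were taken from 5 lists, and none of their 68 genes passed 0.5 between replicates in either direction. At this limit 0.744% of 7929 protein-coding genes were higher and 0.416% lower. Finding none among 68 genes therefore does not set the lists apart from other genes. Of 10 SR-related proteins, all at 10 TPM or more, Srrm2, a scaffold of nuclear speckles, and Son were the highest at 403 ± 62.1 TPM and 193 ± 26.9 TPM (mean ± SD, n = 2). Their ratios ran from -0.17 (Srrm2) to 0.27 (Tra2a). Of 9 kinases that phosphorylate SR proteins, Clk1 and Clk4 were the highest at 160.5 ± 8.29 TPM and 114 ± 8.04 TPM, with ratios from -0.23 (Prpf4b) to 0.13 (Clk3). Of 20 further hnRNP-type proteins, Ewsr1 was the highest at 330.4 ± 91 TPM, and ratios ran from -0.20 (Ptbp2) to 0.21 (Pcbp3). The TPM of Ewsr1 was 266 and 395, whereas its count ratio was -0.04.

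Of 15 core spliceosome genes, Snrpn, the neuronal Sm protein, stood at 484 ± 13 TPM and the helicase Ddx5 at 319 ± 11.2 TPM, with ratios from -0.09 (Prpf8) to 0.23 (Snrpc). The 14 genes of nonsense-mediated decay and the exon junction complex were lower, with a median of 20.015 TPM. Eif4a3, the helicase of the junction complex, and Smg5 led them at 52.4 ± 5.73 TPM and 45.8 ± 3.43 TPM, the central helicase Upf1 stood at 14.8 ± 0.912 TPM, and ratios ran from -0.15 (Smg8) to 0.19 (Smg9).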

How the data were processed

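Polyadenylated RNA of 2 frontal cortex libraries was measured. Gene-level and transcript-level estimates were deposited for each library, based on mm10 and annotation M4, per the file headers and the deposited text description; the quantification program is not given in the sources used here. The deposited values used were expected counts, TPM (scaled over every entry, spike-ins too), interval bounds of TPM (treated as a score, their level not being stated) and each transcript's percent of its gene's TPM. Computed shares of the gene TPM differed from that deposited percent by at most 0.02 points.

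Symbols, biotypes, transcript structures and sequences were taken from GENCODE M21 by identifier, versions ignored. Of 282 M21 transcripts of the members, 66 were not analysed here. Of 211 matched transcripts, 192 have the same length in both. For 18 of 31 members the gene's expected counts were whole within 0.005 in both libraries. The coding class includes models with an incomplete coding sequence, which took up to 48.1% of a member (Srsf12).

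Ratios between replicates used expected counts rounded to whole numbers, without spike-ins, a prior count of 2 and TMM factors (edgeR 4.0.16, R 4.3.3); DESeq2 1.42.0 size factors were an alternative. The scripts were tested on simulated data. Intervals cover counting error only, because PCR copies cannot be told from molecules here, and SDs of 2 libraries have 1 degree of freedom. A call needed both libraries to pass. All members are named; transcript detail is given for members called by class and the 6 most abundant, as the top model of a class, and Hnrnpa1, Hnrnpa3, Srsf9 and Srsf12 models named beyond this were picked with their values in view. A result on the partner lists is not reported here. The members and lists were chosen with earlier results of these data known. Alternatives covered posterior means, expected counts, thresholds, filters, scaling, single libraries and, added after the data were seen, M21 gene assignment, the family shares under other units and the removal of models with an effective length under 100 nt.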

Additional observations from a re-analysis of the deposited data

How the results depend on the processing

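No paired analysis was possible because the series holds 1 group. Of 122 recomputed main results, 96 moved by less than a spread or, for counts, by at most 1.5 times. The spread was the SD of the libraries or, for the median ratio, the SD over members. For family sums and their class shares, a single library lies within that SD by construction. Other settings left results unchanged by construction, such as M21 grouping for the class shares of the SR sum. The 96 is therefore no measure of how stable the results are. TPM rescaled to nuclear protein-coding genes moved the summed levels to 2769 (SR) and 3984 TPM (hnRNP), since the deposited TPM also covers mitochondrial and other RNA; the order of the families was kept. Shares of expected counts gave 5 members under 50% coding in place of 9, 6 with the decay class in place of 10, a median non-coding share of 5.74% in place of 21.5%, and 0 transcripts differing by 10 points; by construction, counts weigh long transcripts more. By expected counts the SR sum was 54.3% coding, 36.6% retained-intron and 5.10% decay RNA, and the hnRNP sum 88.9, 4.43 and 2.51%. By M21 gene the hnRNP sum was 74.7, 9.49 and 7.82% by TPM and 81.9, 4.07 and 7.66% by expected counts, and by posterior-mean TPM its coding share was 79.6%. Doubled thresholds left 6 members with a decay share of 10% or more, a filter at 20 TPM gave a median non-coding share of 24.4%, and 5 points in place of 10 gave 17 transcripts. The median ratio was -0.16 by TPM with pseudocount 1, where all genes stood at -0.11. Single libraries gave 30 to 31 members at 10 TPM, 12 with a retained-intron share of 10% or more (with Hnrnpdl in replicate 2 and Srsf4 in replicate 1), and 20 to 21 pairs beyond the spread, Hnrnpa1 over Hnrnpa3 passing in replicate 1 alone. Grouping by M21 gene gave 10 members under 50% coding and 11 with the decay class, Hnrnpu being added to both, and 10 with the retained-intron class, Hnrnpu being lost. Posterior-mean TPM added Hnrnpdl to the retained-intron class (12 members) and lost Srsf2 from the decay class (9 members). Shares of all genes under doubled thresholds, single libraries, M21 grouping and posterior means are not given here. The member counts at these settings therefore cannot be set against other genes. For coding transcripts only, Srsf3 over Srsf7 reversed to -0.77 and Srsf6 over Srsf4 fell within the spread at 0.09. The single Srsf7 model is a coding one, so that reversal rests on the annotation. At this depth 155 of 212 member transcripts reached 1 TPM in both libraries; no reads were thinned, so what depth limits was not tested.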

Other observations

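Long coding models weighed more by counts than by TPM in several members; these were chosen after their values were seen. Srsf1-205, of 5362 nt, took 12.7 and 13.6% of the gene's TPM and 39.7 and 42.9% of its expected counts in replicates 1 and 2. Hnrnpa2b1-203, of 4086 nt, took 38.5 and 40.2% of TPM and 62.5 and 64.3% of counts. Hnrnpa3-203, of 5150 nt, took 43.1 and 39.4% of TPM and 77.1 and 75.4% of counts, and Hnrnpu-201, of 7640 nt, took 60.1 and 64.8% of TPM and 95.5 and 96.3% of counts. In Srsf5 the order ran the same way for the long retained-intron model Srsf5-212 (2720 nt), with 26.3 and 28.5% of TPM and 50 and 53.6% of counts.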
